A study of Komagataella phaffii GS115 with 2 samples.

Results

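MXR1, MIT1 and TRM1 encode transcription activators of the genes with which the yeast Komagataella phaffii grows on methanol. They were taken by their locus tags, PAS_chr4_0487 for MXR1, PAS_chr3_0836 for MIT1 and PAS_chr4_0203 for TRM1 (also called PRM1), and are 3 of the 5040 genes in the deposited values. All 3 were found and no filter removed any of them. The file and the gene table list them by locus tag alone, so the gene names could not be checked against these data. The study mapped H3K36me3, histone H3 trimethylated on a lysine of its tail, by chromatin immunoprecipitation followed by sequencing (ChIP-seq) in wild-type cells of strain GS115. The labels list 2 ChIP libraries of this 1 group, name no further allele, agent or carbon source, and say only that the cultures were shaken. The values are 1 column of FPKM (fragments per kilobase of gene per 1000000 fragments), deposited with replicate 1. The column itself carries no replicate number, and whether replicate 2 was pooled into it is not stated. The values carry no replicate error, so every comparison below is between genes within that column, as a description without a test.

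Methanol is oxidised in peroxisomes by alcohol oxidase, and the genes for this enzyme and for the steps after it are repressed on glucose and strongly induced on methanol. Mxr1 is a zinc finger protein related to Adr1 of Saccharomyces cerevisiae and is needed for the induction of alcohol oxidase and of many peroxisomal proteins. Mit1 and Trm1 are fungal activators of the zinc cluster type that are also needed for full induction. In Saccharomyces cerevisiae the methyltransferase Set2 binds elongating RNA polymerase II and marks the bodies of transcribed genes with H3K36me3.

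The H3K36me3 signal over the 3 activator genes lay in the upper part of the range of all genes, close to the middle for TRM1. MXR1 had 157 FPKM, MIT1 had 153 FPKM and TRM1 had 143 FPKM, against a median of 138 FPKM over all 5040 genes (quartiles 126 and 148 FPKM). All 3 thus lay above the median, and MXR1 and MIT1 lay above the upper quartile while TRM1 did not. The middle 90% of all genes ran from 101 to 164 FPKM, and each activator gene lay inside that range.

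**Figure D1:**
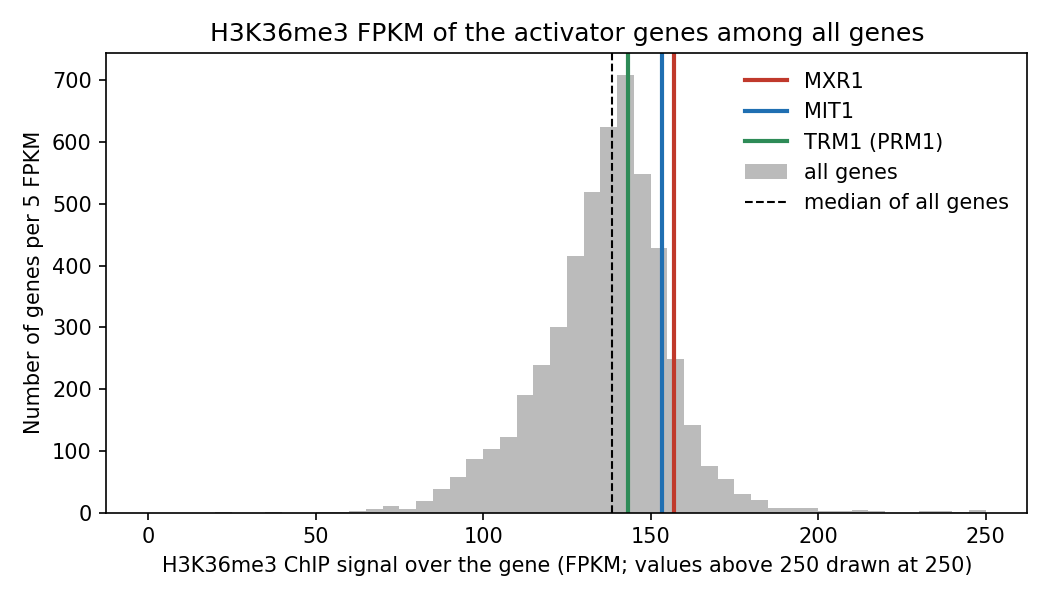
Number of genes per 5 FPKM of H3K36me3 ChIP signal for all 5040 genes (grey), with vertical lines at MXR1, MIT1 and TRM1 and a dashed line at the median of all genes. MXR1 (157 FPKM) and MIT1 (153 FPKM) lie close together on the right side of the distribution, and TRM1 (143 FPKM) lies nearer to the median of 138 FPKM.

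MXR1, the zinc finger activator, was 13.4% above the median of all genes, a difference of 0.18 in log2(FPKM + 1). It ranked 507 from the top and was higher than 90.0% of the other genes. MIT1, a zinc cluster activator, was 10.9% above the median, a difference of 0.15 in log2(FPKM + 1). It ranked 726 from the top and was higher than 85.6% of the other genes. TRM1, the other zinc cluster activator, was 3.58% above the median, a difference of 0.050 in log2(FPKM + 1), and was higher than 64.0% of the other genes. Against genes of their own chromosome the order was alike, with MXR1 above 89.0% and TRM1 above 63.4% of the other genes of chromosome 4, and MIT1 above 84.3% of those of chromosome 3.

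None of the 3 lay more than 25% from the median of all genes. Few genes did, with 2.22% of all genes more than 25% above it and 6.05% as far below it, so with 3 genes a count of 0 is near the background. Of the 3 activator genes, 2 lay above the upper quartile, which by definition holds 25% of all genes. The median of the 3 was 153 FPKM, against 138 FPKM for all genes. The signal was not divided by input or by H3, whose libraries were not used here, so these levels also hold unenriched fragments, nucleosome density, copy number and mapping. Their part in the differences was not tested.

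MXR1 and MIT1 had levels close to each other, and TRM1 was lower than both. MXR1 was higher than MIT1 by 3.53 FPKM, or 2.30%, and 218 genes had values between those of the pair. MXR1 was higher than TRM1 by 13.6 FPKM, or 9.50%, a gap that held 1307 genes or 25.9% of all genes. MIT1 was higher than TRM1 by 10.1 FPKM, or 7.03%, with 1088 genes between them. The order was therefore MXR1, MIT1, TRM1, and without replicate values it is not known whether levels next to each other in this order differed beyond the spread between cultures. Relative to each gene's own surroundings, given below, the order changed, because the difference of MIT1 minus TRM1, 0.097 in log2(FPKM + 1), became -0.017.

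All 3 activator genes are long, and among long genes MXR1 and MIT1 stood higher in the order than among all genes. Their excess over the median was nevertheless smaller among long genes, at 0.14 and 0.10 in log2(FPKM + 1), than among all genes, at 0.18 and 0.15. Their annotated lengths are 3468 nt for MXR1, 2667 nt for MIT1 and 2970 nt for TRM1, against a median of 1197.5 nt over all genes. Each falls in the longest of 10 classes of equal size by length, which holds 504 genes of 2625 nt and above. Long genes had a narrow spread, with an SD over genes of 9.70 FPKM in this class, a median of 143 FPKM and quartiles at 136 and 147 FPKM.

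MXR1 was higher than 97.8% of the other genes in that class, 0.14 above the class median in log2(FPKM + 1). At 157 FPKM it was above the 95th percentile of the class, 154 FPKM. MIT1 was higher than 94.6% of the other long genes, 0.10 above the class median in log2(FPKM + 1), and lay just under the 95th percentile. TRM1 was higher than 55.9% of them and 0.0063 above the class median, so its level was that of a typical long gene. In the longest class, 19.4% of genes lay above the upper quartile of all genes, as MXR1 and MIT1 did.

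**Figure D2:**
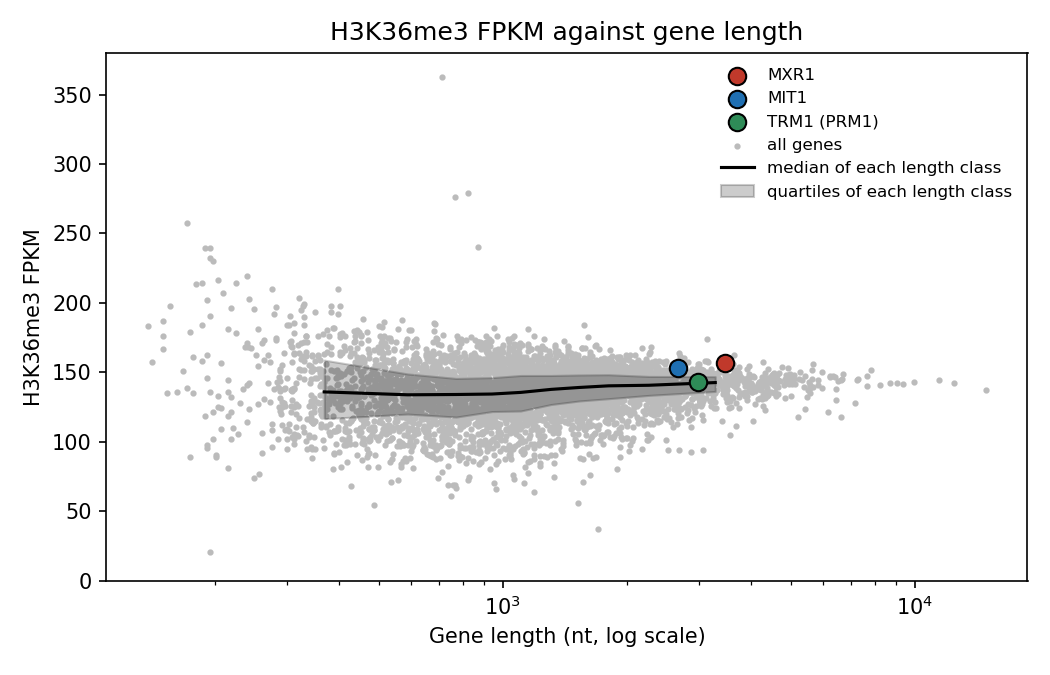
H3K36me3 FPKM of each gene against its annotated length on a log axis, with all genes in grey, the activator genes as large points, and the median (line) and quartiles (band) of 10 length classes. MXR1 and MIT1 lie above the band at 157 and 153 FPKM, while TRM1 lies on the line of class medians at 143 FPKM.

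Length also sets how many fragments stand behind a value. FPKM multiplied by length in kilobases gives the fragments of a gene in every 1000000 of the scaling total, 544 for MXR1, 409 for MIT1 and 426 for TRM1, against 163 for the median gene. The number of sequenced fragments is unknown, so no counting interval can be given. At any depth the counts behind the 3 activator genes exceed that of the median gene.

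The genes on either side of each activator gene in file order give its local level, and each activator gene lay above the median of the 5 genes on each side. Of all genes, 50.2% lay above that median by the same measure, and 64.7% of the genes in the longest class did. None of the 3 lay more than 25% above or below its local median. Of all genes, 2.88% lay that far above theirs and 5.79% that far below. No activator gene overlapped the gene before or after it in file order, and overlap with genes outside the file was not looked at. The nearest chromosome end was 460 genes of the file away for MXR1, 345 for MIT1 and 196 for TRM1. The gene table used here pairs these neighbours with no gene name or product, so they are given by place.

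MXR1 had the highest signal of its surroundings. Its 157 FPKM stood against 130 FPKM in the gene before it and 132 FPKM in the gene after it. The 10 surrounding genes ran from 112 to 151 FPKM with a median of 132 FPKM, so that they did not reach MXR1. The difference between MXR1 and their median was 0.24 in log2(FPKM + 1), a larger excess than that of 93.5% of the other genes over their own surroundings and than that of 98.0% of the other genes in the longest class. The genome-wide median of 138 FPKM was above 8 of these 10 genes, and none lay more than 25% from it. With 10 genes on each side, 1 of 20 was higher than MXR1.

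MIT1 was also the highest of its surroundings, by a small margin over several of them. Its 153 FPKM stood against 151 FPKM in the gene before it and 120 FPKM in the gene after it, which is a short gene of 315 nt. The 10 surrounding genes ran from 117 to 151 FPKM with a median of 135 FPKM. The difference of MIT1 from that median was 0.18 in log2(FPKM + 1), larger than that of 87.4% of the other genes and than that of 93.4% of the other genes in the longest class. It was 0.12 when genes shorter than 500 nt were left out and 0.10 when each gene was first set against its own length class. With 10 genes on each side, 3 of 20 were higher than MIT1.

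TRM1 was not the highest of its surroundings, although its excess over their median was like that of MIT1. Its 143 FPKM stood against 150 FPKM in the gene before it and 90.3 FPKM in the gene after it, PAS_chr4_0204. That gene, of 951 nt, was higher than only 1.71% of the other genes. The 10 surrounding genes ran from 90.3 to 157 FPKM, and 3 of them were higher than TRM1 and 7 lower.

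The local median around TRM1 was low, at 124 FPKM, and only 3.55% of the other genes had a lower one. Of the 10 genes, 3 were under the genome-wide median by more than 25%, namely PAS_chr4_0204 and, 2 and 5 places before TRM1, PAS_chr4_0925 at 97.7 FPKM (411 nt) and PAS_chr4_0198 at 103 FPKM (653 nt). The surrounding genes had a median length of 814.5 nt, in contrast to 1188 nt around MXR1 and 1693.5 nt around MIT1. The difference of TRM1 from the local median was 0.20 in log2(FPKM + 1), larger than that of 89.3% of the other genes and than that of 95.0% of the other genes in the longest class. It was 0.049 against 10 genes on each side, of which 9 of 20 were higher than TRM1. Against a mean of the 5 on each side weighted by length it was 0.113. It was 0.146 when each gene was first set against its own length class. In the same order MIT1 had 0.148, 0.154 and 0.104, so the likeness did not hold against 10 genes on each side.

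**Figure D3:**
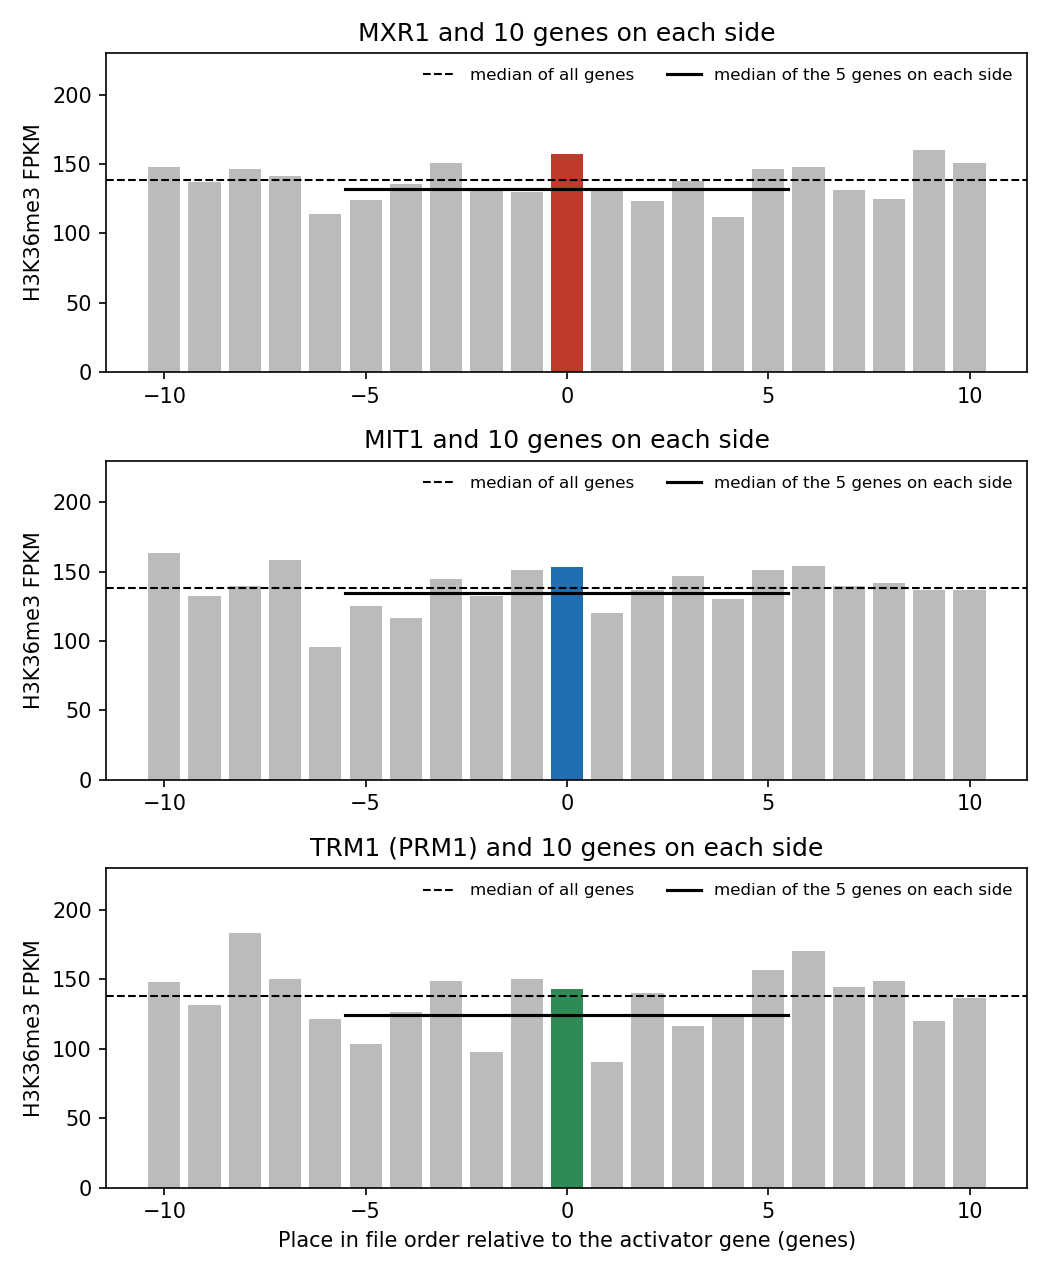
H3K36me3 FPKM of MXR1, MIT1 and TRM1 (coloured bars) and of the 10 genes on each side in file order (grey bars), with the median of all genes (dashed) and the median of the 5 genes on each side (solid). The bars of MXR1 and MIT1 are the highest among themselves and 5 genes on each side. Among the 5 genes on each side of TRM1, 3 bars are higher than its own, and their median is 124 FPKM. Over the 10 genes drawn on each side of TRM1, 9 of 20 are higher.

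MXR1 and MIT1, but not TRM1, were thus each the highest among themselves and the 5 genes on each side. Of all genes, 8.81% were the highest of such a stretch, and 4.17% of the genes in the longest class were. MXR1 and MIT1 were likewise higher than both adjacent genes, as were 31.8% of all genes and 39.3% of the genes in the longest class. This rank was looked at after the values had been seen.

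The 2 long genes nearest in level to MXR1 were PAS_chr4_0160 and PAS_chr3_0865, at differences of 0.0751 and 0.184 FPKM. Nearest to MIT1 were PAS_chr2-1_0402 and PAS_chr3_0935, at differences of 0.0853 and 0.136 FPKM. Nearest to TRM1 were PAS_chr2-2_0467 and PAS_chr3_1134, at differences of 0.000443 and 0.0154 FPKM. Likeness here is nearness over 1 column of values.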

How the data were processed

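The authors deposited 1 column of FPKM values for 5040 genes. Its header gives H3K36me3 and FPKM and names no division by input or H3. Per the submitters' processing notes, the tools were Bowtie2, MACS2, SAMtools, deepTools, Trimmomatic 0.39 and FastQC 0.12.1, with no roles stated. The genome build, the annotation, the tool that counted fragments and any pooling of replicates were all not given in the sources used here. All 5040 identifiers matched the RefSeq gene table (assembly ASM2700v1), which lists them in the file's order. It supplied gene order, overlap, chromosome and length, and its coordinates are not printed. Of the lengths, 92.2% are multiples of 3, and FPKM times length summed to 100.1% of the sum that a scaling total counted in these genes would give. Over totals from 100000 to 300000000, no value of 1 fragment was found. The search used 300 genes with the fewest implied fragments among those whose length is a multiple of 3. At the best total 18.3% of them, the highest share over all totals tried, and 10.3% of all genes lay within 0.05 of a whole fragment, against 10% by chance for a single total. Depth is therefore unknown.

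Differences were calculated in log2(FPKM + 1), and percentiles are shares of other genes with lower values. The code that calculates the differences, but not the percentiles, was tested on simulated data. These were the real values shuffled over genes, with known shifts, larger than the differences reported here, added to some genes. Shuffling removed any relation to neighbours or length, so the check covers the arithmetic alone. With 1 column no statistical test was possible. The genes to mention were chosen by a written rule. It took the 3 members, their adjacent genes and the 2 nearest in level. It also took any of 5 genes on each side more than 25% from the median. Adjacent genes other than PAS_chr4_0204 are given by place and not by identifier. The members and lists were chosen with earlier results of these data known. The lists of other methanol genes, regulators and sequence features were left out because the table gives no gene name, product or sequence. Python 3.11.15, numpy 2.4.6, pandas 2.3.3 and matplotlib 3.10.9 were used.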

Additional observations from a re-analysis of the deposited data

How the results depend on the processing

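No paired analysis was possible because a single column for 1 group was used, and leaving out each replicate could not be run for the same reason. Another 69 values were calculated for 12 differences. Of these, 12 could not move: the filter at 1 FPKM removed no gene (9 values), and all 3 genes share 1 length class (3 values). Of the other 57, 55 kept their sign and moved by less than the SD over genes of the longest class, 0.10 in log2(FPKM + 1). That limit is wide, since 5 of the 12 differences are themselves smaller than it. Some of the 57 added 0.1 or 10 to FPKM in place of 1, which can hardly move a difference at these levels. MXR1 against its neighbours, for example, was 0.230 with 10 added, in place of 0.245. The 55 therefore include values that were bound to stay within the limit. TRM1 against its neighbours moved to 0.049 with 10 genes on each side. MIT1 minus TRM1 changed sign to -0.017 when each was taken relative to the median of the 5 genes on each side. The cause of these moves was not tested. Against 10 genes on each side, or a mean weighted by length, MIT1 was again above TRM1. Relative to neighbours, MXR1 minus TRM1 was 0.043 in place of 0.13, and MXR1 minus MIT1 was 0.060 in place of 0.033. MXR1 against its neighbours ranged from 0.20 to 0.26, MIT1 from 0.10 to 0.19 and TRM1 from 0.049 to 0.25. Weighting neighbours by length and setting each gene against its length class were chosen after seeing the data. Unknown depth and 1 column leave counting error and culture error unmeasured.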
